A study of Homo sapiens with 96 samples.

Results

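The 40 genes described here encode proteins of the centromere, the kinetochore and the spindle checkpoint, with the chromosomal passenger and shugoshin proteins that act at the same site. They were chosen by symbol, with no rule on their values, though with earlier results of these data known. All 40 were found among the 19438 genes of the tables. Human U2-OS cells, an osteosarcoma line that here carries luciferase under the Per2 promoter, were reset with 0.1 µM dexamethasone and collected from 24.5 h later, every 2 h, at 12 circadian times (CT00 to CT22), after 100 µg/mL cycloheximide to hold ribosomes on their mRNAs. Knockdown cells were seeded at 0.56 M cells per plate and transfected with 120 pmol of a mix of 5 siRNAs against Bmal1, the clock activator listed as ARNTL. Wild-type cells were seeded at 2.25 M cells per plate and received no siRNA. Both were sampled with 2 replicates per time, by total RNA sequencing and by sequencing of ribosome-protected fragments (footprints), which gave 24 libraries for each treatment and assay and 96 in all. The labels name no control siRNA, so the target, transfection and seeding density cannot be told apart in any difference between treatments.

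The kinetochore is the protein structure that ties a chromosome to spindle microtubules. At its base, nucleosomes holding the histone H3 variant CENP-A carry a constitutive network of CENP proteins, abbreviated CCAN. That network recruits the MIS12 complex and KNL1, and these hold the NDC80 complex, which grips the microtubule with the help of the SKA complex. Unattached kinetochores also carry a fibrous corona and the checkpoint kinases, which delay anaphase until every chromosome is attached. Most of these genes are transcribed periodically in dividing cells, with mRNA building up towards mitosis, and many of their promoters carry a cell cycle genes homology region (CHR) bound by the DREAM and MuvB-FOXM1 complexes.

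The CHR and the CCAAT box that often lies upstream of it were looked for in RefSeq promoters (GRCh38.p14, 250 bases before to 50 after the start, the first listed start per gene), which were available for 32 of the 40 genes. A CHR was written as TTTGAA or TTTAAA, read on both strands. It was present in 17 of the 32 windows (53.1%), against 15.9% of the 10469 tested genes with a promoter. CCAAT, on either strand, was present in 19 of 32 (59.4%), against 36.5% of tested genes. The E-box CACGTG, the element through which BMAL1 acts, was in 4 of 32 windows (12.5%) and in 10.1% of tested genes. E2F letters (TTTCCCGC, TTTCGCGC, TTTGGCGC or TTTGCCGC) were in 2 of 32 (6.25%) and in 5.42% of tested genes. A match describes the letters of the window only. The 120 bases before the start are printed below for 6 genes, with CHR and CCAAT letters in capitals on the strand of the gene, so that TTCAAA and ATTGG are the reverse forms. CENPA, BUB1B, ZWINT and CDCA8 are shown for windows with a CHR and lower RNA in knockdown. SKA2 and CENPT are shown for windows without one, in genes whose RNA hardly differed or was higher in knockdown. SKA2 and CENPT are not typical of such windows. Of the 15 genes without a CHR, 13 were called lower in total RNA by the test below, SKA2 among them. In CDCA8 a CHR overlaps a reverse CCAAT (TTTGAATTGG).
CENPA (chr2:26785936-26786055, plus strand): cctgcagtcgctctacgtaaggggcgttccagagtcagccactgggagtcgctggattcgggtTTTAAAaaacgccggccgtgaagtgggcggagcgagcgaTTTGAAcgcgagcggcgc
BUB1B (chr15:40160949-40161068, plus strand): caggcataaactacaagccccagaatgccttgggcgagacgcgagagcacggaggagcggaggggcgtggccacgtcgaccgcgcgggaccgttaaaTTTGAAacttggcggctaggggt
ZWINT (chr10:56361260-56361379, minus strand): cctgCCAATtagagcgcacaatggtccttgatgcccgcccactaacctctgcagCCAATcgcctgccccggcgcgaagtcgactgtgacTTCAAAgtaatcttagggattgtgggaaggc
CDCA8 (chr1:37692396-37692515, plus strand): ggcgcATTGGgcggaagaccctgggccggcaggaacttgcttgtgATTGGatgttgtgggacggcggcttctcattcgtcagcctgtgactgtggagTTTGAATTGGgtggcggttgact
SKA2 (chr17:59155187-59155306, minus strand): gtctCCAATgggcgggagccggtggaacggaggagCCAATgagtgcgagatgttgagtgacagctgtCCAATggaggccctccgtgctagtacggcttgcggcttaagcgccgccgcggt
CENPT (chr16:67847694-67847813, minus strand): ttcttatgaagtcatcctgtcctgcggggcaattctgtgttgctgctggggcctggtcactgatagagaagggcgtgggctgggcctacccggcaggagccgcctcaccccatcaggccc

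Total RNA libraries held 2.56 to 20.1 M reads in knockdown and 14.6 to 17.6 M in wild-type, and footprint libraries 2.60 to 4.32 M in knockdown and 2.50 to 5.82 M in wild-type. In the second replicate of knockdown total RNA, CT14 and CT18 were shallow, at 2.66 and 2.56 M reads. Values are CPM, the reads of a gene per M reads of its library after scaling within each assay, and no gene length was used, so levels are not compared between genes. ARNTL had 3.36 to 6.49 CPM of total RNA in knockdown libraries, against 14.3 to 47.9 CPM in wild-type libraries. VIM (2192 CPM), SPARC (1088 CPM), COL1A1 (178 CPM) and RUNX2 (13.0 CPM), markers of mesenchymal and bone lineage cells, were present over the 48 total RNA libraries, while COL1A2, BGLAP and IBSP averaged 0.122, 0.0140 and 0.0317 CPM. All 4 epithelial markers were at 1.12 to 5.01 CPM. Of 4 blood cell markers, summed at 9.84 to 17.6 CPM in knockdown and 1.57 to 3.38 CPM in wild-type total RNA, only CD68 passed the filter on low counts, and PTPRC and HBB averaged 0.263 and 0.00515 CPM. The part of that difference in the results below was not tested.

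Nearly all of the 40 genes had less RNA in knockdown cells. Over the 12 times, 38 were called lower and 1 higher by limma (Benjamini-Hochberg adjusted p under 0.05 over all genes), and 1 was not called. Of all 13188 genes tested, 39.9% were called lower, 41.8% higher and 81.7% in either direction. The median log2 difference, knockdown minus wild-type, was -0.75 over the 40 genes and 0.01 over all genes tested. Summed over the 40 genes, total RNA was 2159 to 3728 CPM in the 24 knockdown libraries (median 3142 CPM) and 4188 to 5629 CPM in the 24 wild-type libraries (median 4806 CPM), with no overlap. In bulk RNA, fewer cells that express these genes and less RNA per cell cannot be told apart. For 24 of the 40 genes every knockdown library lay under every wild-type library, which held for 9.96% of all genes tested, and 37 genes were lower at all 12 times, as were 27.6% of all genes tested. When each series of 12 libraries was reduced to its mean, leaving 2 values per treatment, 37 genes were still called lower, against 29.0% of all genes.

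**Figure D1:**
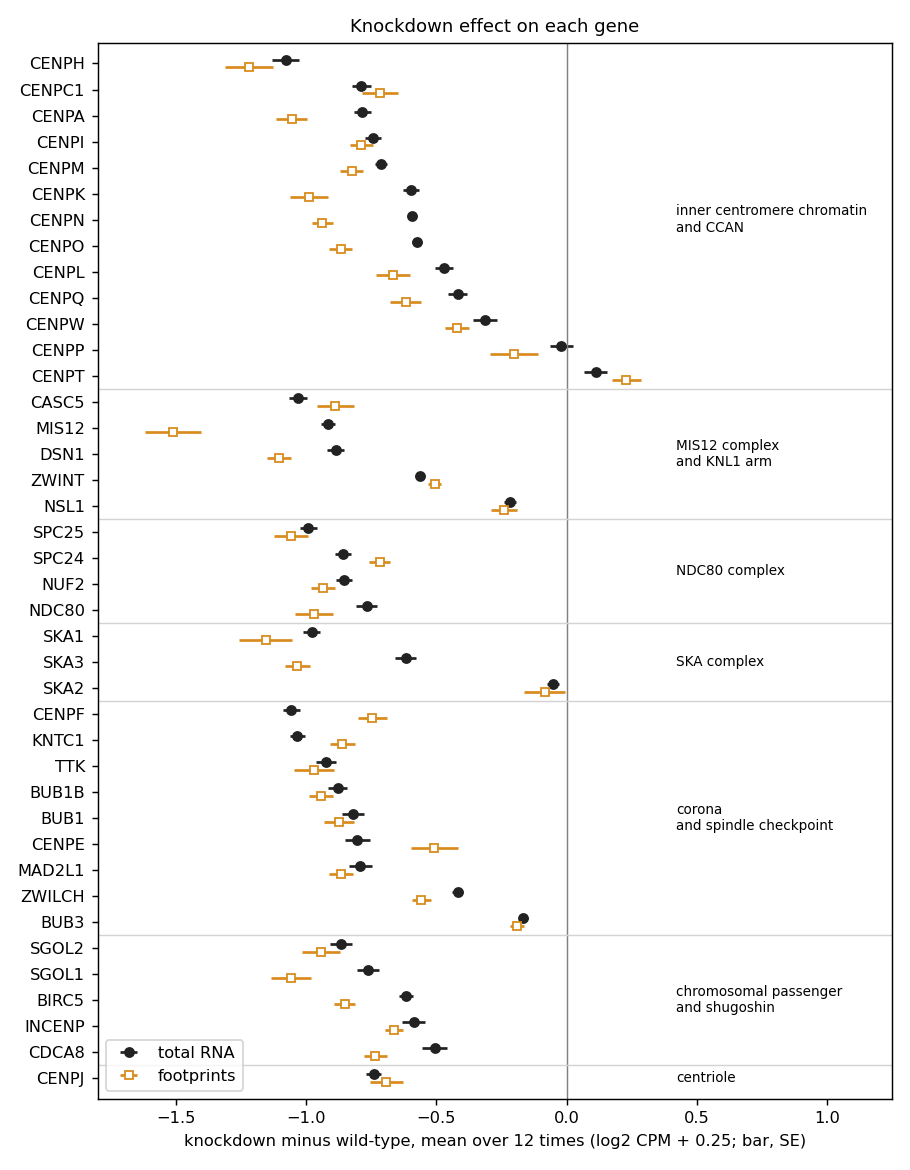
Difference between knockdown and wild-type (log2, mean over 12 times, with SE) of each of the 40 genes, by role, in total RNA (filled circles) and footprints (open squares). Most genes lie between -1.1 and -0.4 in total RNA, CENPT lies above 0 in both assays, and MIS12 is lowest in footprints at -1.51.

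Among the 13 genes of centromeric chromatin and the CCAN, 11 fell in total RNA, 1 rose and 1 was not called. CENPH, a CCAN subunit of the group that bridges to the outer kinetochore, had 33.8 to 59.1 CPM in knockdown libraries (median 46.4 CPM) and 84.1 to 119.5 CPM in wild-type libraries (median 98.1 CPM). It fell by 1.08 ± 0.05 on the log2 scale (SE, adjusted p = 7.59e-18), the largest fall among the 40. CENPA, the histone variant itself, had 39.4 to 95.3 CPM in knockdown libraries (median 76.4 CPM) and 104.7 to 162.3 CPM in wild-type libraries (median 119 CPM), again without overlap, and fell by 0.78 ± 0.03 (adjusted p = 5.06e-20). CENPK and CENPQ, further CCAN subunits, fell by 0.60 ± 0.03 and 0.42 ± 0.04 (adjusted p = 5.21e-18 and 3.72e-12), with libraries of the treatments overlapping.

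CENPP and CENPT did not follow the rest of the CCAN. CENPP, of the subcomplex that also holds CENPO and CENPQ, had 6.50 to 15.97 CPM in knockdown libraries (median 10.96 CPM) and 9.12 to 12.8 CPM in wild-type libraries (median 10.7 CPM), and the ranges overlapped throughout. Its difference was -0.02 ± 0.05 (adjusted p = 0.675), with a lower mean in knockdown at 6 of 12 times. CENPT, a DNA-binding protein that recruits NDC80, had 14.6 to 26.2 CPM in knockdown libraries (median 18.6 CPM) and 12.8 to 21.4 CPM in wild-type libraries (median 17.6 CPM). It rose by 0.11 ± 0.04 (adjusted p = 0.0233), was lower in knockdown at 2 of 12 times, and was no longer called without the 2 shallow libraries, without replicate 1 or on series means. Both genes overlap coding genes on the opposite strand in RefSeq, CENPT with NUTF2 and THAP11 and CENPP with ASPN, ECM2, IPPK and OGN. Whether counting used strand is not given in the sources used here. The values of both genes are therefore uncertain, and likewise those of CENPJ, CENPO, SPC25, ZWILCH and MIS12, which overlap opposite-strand coding genes too. BUB1B overlaps the coding gene BUB1B-PAK6 on its own strand. CENPN, SGOL1, SKA2 and BUB1B overlap opposite-strand genes that are not protein-coding. The effect of these overlaps on the counts was not tested. The strand was known for 32 of the 40 genes. CENPH, CENPL, CENPM, BUB3, TTK, KNTC1, CASC5 and BIRC5 had none listed, so such overlaps were not looked for in them.

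All 5 genes of the MIS12 complex and the KNL1 arm fell. CASC5, which encodes KNL1, the scaffold on which checkpoint proteins assemble, had 36.9 to 75.3 CPM in knockdown libraries (median 60.6 CPM), against 92.6 to 142 CPM in wild-type libraries (median 113 CPM). Its fall was 1.03 ± 0.03 (adjusted p = 6.69e-23), with no overlap. MIS12 itself had 16.4 to 23.3 CPM in knockdown libraries (median 20.3 CPM) and 34.5 to 43.2 CPM in wild-type libraries (median 37.5 CPM), again without overlap, and fell by 0.92 ± 0.03 (adjusted p = 2.91e-24). DSN1, a MIS12 complex subunit, fell by 0.89 ± 0.03 (adjusted p = 8.23e-22), and ZWINT, a KNL1 partner described after its value was seen, by 0.56 ± 0.02 (adjusted p = 1.04e-22). NSL1, another subunit of that complex, moved least, at 54.4 to 70.6 CPM in knockdown libraries (median 63.4 CPM) and 65.9 to 79.3 CPM in wild-type libraries (median 73.3 CPM). Its ranges overlapped, and it fell by 0.22 ± 0.02 (adjusted p = 6.63e-11).

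The 4 subunits of the NDC80 complex, the microtubule coupler, fell together. SPC25 showed the largest fall of the complex, 0.99 ± 0.03 (adjusted p = 1.98e-23), at 25.1 to 52.7 CPM in knockdown libraries (median 41.4 CPM) and 63.9 to 91.8 CPM in wild-type libraries (median 79.9 CPM). SPC24, its partner at the kinetochore end, fell by 0.86 ± 0.03 (adjusted p = 1.86e-22), and NUF2, which pairs with NDC80 at the microtubule end, fell by 0.85 ± 0.03 (adjusted p = 7.84e-23). None of these 3 overlapped between treatments. NDC80 had 73.7 to 166 CPM in knockdown libraries (median 129 CPM) and 156 to 267 CPM in wild-type libraries (median 203 CPM), which overlapped at the edges, and fell by 0.77 ± 0.04 (adjusted p = 1.82e-17). The SKA complex was uneven. SKA1, its microtubule-binding subunit, fell by 0.98 ± 0.03 (adjusted p = 1.23e-23), with 19.8 to 46.8 CPM in knockdown and 53.0 to 81.3 CPM in wild-type libraries. SKA3 fell by 0.62 ± 0.04 (adjusted p = 3.13e-15). SKA2, the subunit that holds the other two together, had 99.6 to 136 CPM in knockdown libraries (median 117 CPM) and 105 to 135 CPM in wild-type libraries (median 123 CPM), almost the same range. Its fall of 0.05 ± 0.02 had an adjusted p of 0.0431. The difference was 0.0033 without replicate 1 (adjusted p = 0.94), and the call was also lost without the filter on low counts and on series means.

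All 9 corona and checkpoint genes fell. CENPF, a large coiled-coil protein of the corona, had 196 to 386 CPM in knockdown libraries (median 298 CPM) and 497 to 672 CPM in wild-type libraries (median 585 CPM), and fell by 1.06 ± 0.03 (adjusted p = 1.55e-23). KNTC1, the ROD subunit of the complex that brings dynein to the kinetochore, fell by 1.03 ± 0.03 (adjusted p = 5.09e-25), while its partner ZWILCH fell by 0.42 ± 0.02 (adjusted p = 2.02e-18). KNTC1 libraries did not overlap between treatments and ZWILCH libraries did. BUB3, a checkpoint adaptor that also serves outside mitosis, changed least in this group, with 278 to 378 CPM in knockdown libraries (median 331 CPM) and 331 to 415.5 CPM in wild-type libraries (median 369 CPM). It fell by 0.17 ± 0.02 (adjusted p = 1.25e-10). The other 5 genes, BUB1, BUB1B, CENPE, MAD2L1 and TTK, fell by 0.79 to 0.92.

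The 5 chromosomal passenger and shugoshin genes fell as well. SGOL2, a shugoshin that protects cohesion at the centromere, had 32.5 to 72.3 CPM in knockdown libraries (median 53.3 CPM) and 72.1 to 121 CPM in wild-type libraries (median 91.6 CPM), which touched at the edge, and fell by 0.87 ± 0.04 (adjusted p = 4.26e-18). CDCA8, which encodes borealin of the passenger complex, fell least of the 5, by 0.51 ± 0.05 (adjusted p = 2.44e-11), with 20.8 to 52.3 CPM in knockdown libraries and 45.0 to 69.9 CPM in wild-type libraries. Its ranges overlapped. CENPJ carries a CENP symbol but encodes a centriole protein; it had 12.9 to 23.9 CPM in knockdown libraries (median 19.0 CPM) and 25.7 to 34.1 CPM in wild-type libraries (median 30.6 CPM), with no overlap. It fell by 0.74 ± 0.03 (adjusted p = 2.35e-21). The 17 genes with a CHR in the window all fell, with a median of -0.79, and 13 of the 15 without one fell, with a median of -0.60. Over all tested genes with a promoter, 45.6% of those with a CHR fell and 38.7% of those without. For CCAAT the medians were -0.76 in the 19 genes with the letters and -0.74 in the 13 without, and 19 and 11 of them fell. Over all tested genes with a promoter, 41.5% of those with CCAAT fell and 38.8% of those without. For the E-box the medians were -0.78 in 4 genes and -0.74 in 28, and 3 and 27 of them fell. No test of these differences was made.

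The rest of the kinetochore list and the cell cycle lists give the setting. Of 25 other centromere and kinetochore genes, 18 fell, 3 rose and 4 were not called, with a median of -0.44. Among those with the largest differences were MLF1IP, a CCAN subunit also named CENP-U (-0.89), CDT1, a licensing factor with a kinetochore role (-0.87), CDC20, the activator of the anaphase-promoting complex (-0.86) and the CENP-A chaperone HJURP (-0.81). All 10 mitotic cyclins and kinases and all 18 DNA replication genes fell, with medians of -0.78 and -0.82. Among 23 regulators of G2 and M phase transcription, 16 fell, 5 rose and 2 were not called. The largest differences there were those of E2F2 (-1.98), the CDK inhibitor CDKN1A (1.81), E2F1 and E2F8 (-1.16 each) and MYBL2 (-0.86).

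Footprints followed the same direction. Of the 40 genes 38 fell, 1 rose and 1 was not called, against 38.1% lower, 37.4% higher and 75.5% in either direction of 11189 genes tested. The median difference was -0.86 over the 40 genes and -0.01 over all genes tested. Summed footprints were 2178 to 4421 CPM in knockdown libraries (median 3688 CPM) and 4822 to 7874 CPM in wild-type libraries (median 5669 CPM), again with no overlap. For 15 genes every knockdown library lay under every wild-type library, which held for 5.66% of genes tested, and 36 genes were lower at all 12 times, as were 23.6% of genes tested. CENPT rose by 0.23 ± 0.05 (adjusted p = 2.86e-04), at 29.0 to 46.0 CPM in knockdown libraries (median 36.9 CPM) and 24.0 to 42.1 CPM in wild-type libraries (median 31.5 CPM). CENPP, not called in total RNA, fell by 0.20 ± 0.09 (adjusted p = 0.0443), a call that was lost with the deposited scaling, without the filter on low counts, without either replicate and on series means. SKA2 footprints differed by -0.08 ± 0.08 (adjusted p = 0.338). With the authors' scaling, 61.4% of the genes called were higher in knockdown, against 49.5% with the scaling used here, and 37 of the 40 genes fell.

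MIS12 had the largest footprint fall of the 40. Its footprints were 2.57 to 9.13 CPM in knockdown libraries (median 5.93 CPM, 8 to 40 reads) and 11.3 to 26.5 CPM in wild-type libraries (median 16.6 CPM, 32 to 132 reads), with no overlap. The fall was 1.51 ± 0.11 (adjusted p = 3.73e-16), against 0.92 in its total RNA, and footprints were lower at all 12 times.

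The ratio of footprints to total RNA, or translational efficiency, changed for fewer genes. It fell for 13 of the 40, rose for 4 and was not called for 23, while 31.1% of 11149 genes tested were called, 2005 lower and 1460 higher. The median change was -0.08 over the 40 genes and -0.01 over all genes tested. With the authors' scaling, which moved the median of all genes to 0.09, 7 fell and 8 rose, against 41.4% of all genes called, and of all calls 80.4% were higher against 42.1% with the scaling used here. The calls of ZWILCH, CDCA8, CENPL, CENPQ, DSN1 and SGOL1 were lost with that scaling, and those of MIS12, SKA3 and CENPK were not. The largest falls were those of MIS12 (-0.59 ± 0.11, adjusted p = 4.04e-05), SKA3 (-0.42 ± 0.07, adjusted p = 1.21e-06) and CENPK (-0.39 ± 0.08, adjusted p = 1.63e-04). CENPF rose by 0.31 ± 0.06 (adjusted p = 1.33e-04). CENPE, the corona kinesin, named after its value was seen, rose by 0.30 ± 0.10 (adjusted p = 0.0237). The smallest called changes were those of ZWILCH (-0.14 ± 0.04, adjusted p = 0.0121), SPC24 (0.14 ± 0.05, adjusted p = 0.0268) and KNTC1 (0.17 ± 0.06, adjusted p = 0.018). The log2 ratio of MIS12 was -1.74 in knockdown and -1.15 in wild-type cells, and that of CENPF 0.39 in knockdown and 0.07 in wild-type cells. By role, 6 of 13 genes of centromeric chromatin and the CCAN fell and none rose. Of 9 corona and checkpoint genes, 3 rose and 1 fell. The roles were not tested against each other. Without replicate 1, 7 of the 40 genes were called, 5 lower and 2 higher, against 16.9% of all genes. Without replicate 2, 7 were called, all lower, against 23.1% of all genes, and the calls of CENPF, CENPE, SPC24 and KNTC1, all 4 rises, were lost. With the authors' scaling CENPT, BUB3, CASC5 and ZWINT were called higher as well.

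**Figure D2:**
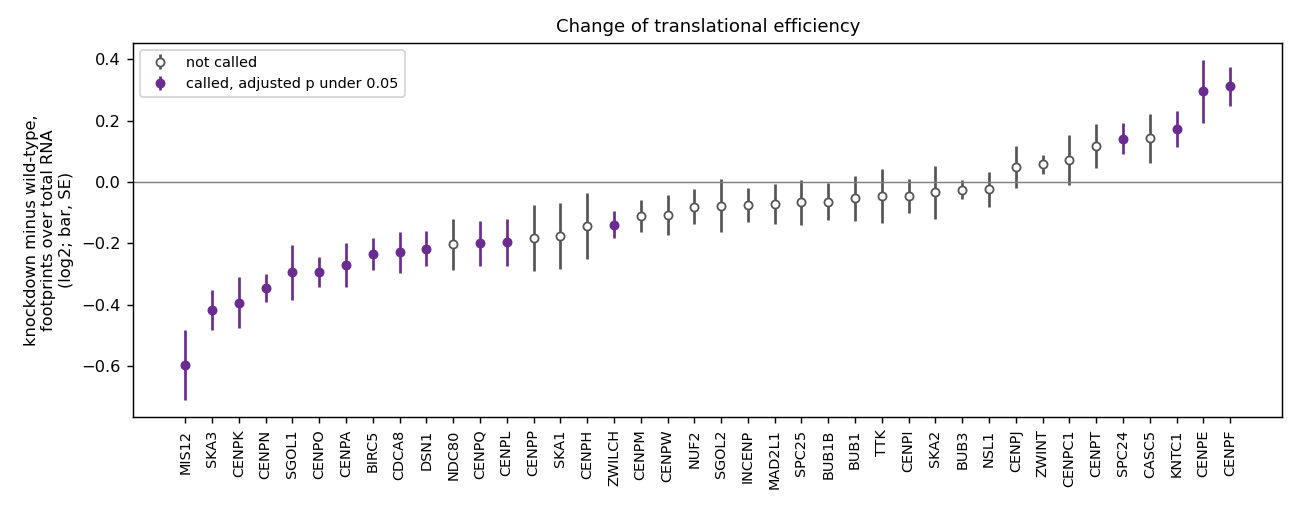
Change of the ratio of footprints to total RNA (log2, knockdown minus wild-type, with SE) of the 40 genes, sorted; filled points were called. MIS12 lies lowest at -0.59, and CENPE and CENPF highest at 0.30 and 0.31.

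The median difference between treatments varied over the day. Differences at single times rest on 2 replicates per treatment and were not tested. The test of a difference in the wave, given below, leaned on replicate 1. In total RNA, the median of the 40 genes was -0.72 at CT00, -0.50 at CT06 and at CT12, and -1.15 at CT22, while the median of all genes tested stayed between 0.00 and 0.02. In footprints it was -0.84 at CT00, -0.51 at CT08 and -1.42 at CT22. Summed total RNA in knockdown cells was highest at CT06 (3678 CPM) and lowest at CT22 (2199 CPM), 1.67-fold apart. In wild-type cells the highest time was CT04 (5282 CPM) and the lowest CT14 (4447 CPM), 1.19-fold apart. The same ratio in footprints was 1.96 in knockdown and 1.28 in wild-type cells. In knockdown total RNA 33 of the 40 genes had their lowest mean at CT22, as did 9 in wild-type. The share of all genes with their lowest mean at CT22 was not computed. The MIS12 difference in total RNA was between -1.03 and -0.70 at all 12 times.

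**Figure D3:**
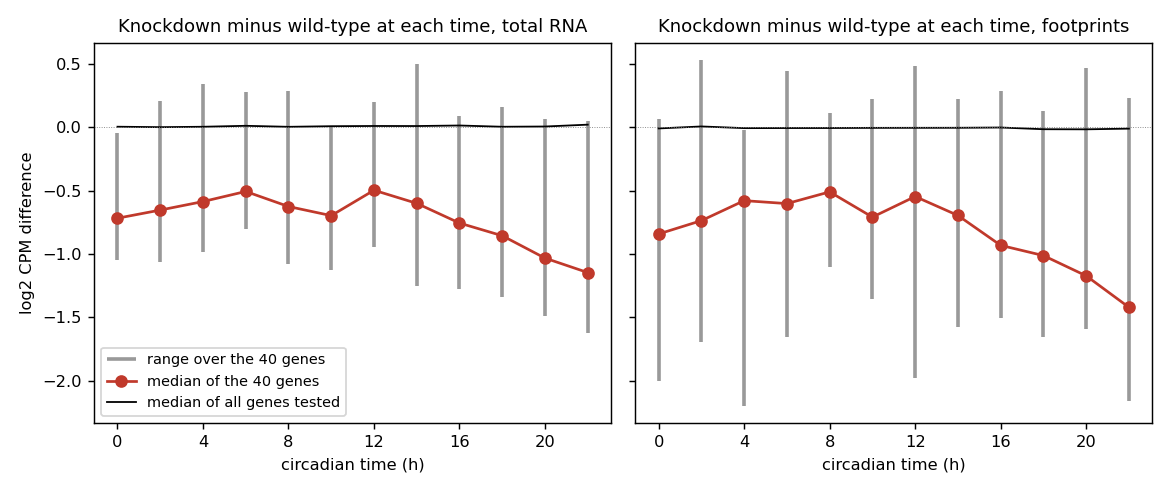
Difference between knockdown and wild-type (log2 CPM) at each circadian time in total RNA and footprints: median (red) and range (grey) of the 40 genes, and median of all genes tested (black). The median of the 40 genes is lowest at CT22, at -1.15 in total RNA and -1.42 in footprints.

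A cosine of 24 h was fitted to each treatment and assay, with the amplitude as the log2 distance from mean to peak. In knockdown total RNA 39 of the 40 genes were called (limma F test, adjusted p under 0.05), against 33.9% of 12765 genes tested. Amplitudes were 0.08 to 0.47 (median 0.34), against a median of 0.09 over all genes tested. Peaks of the called genes fell between CT 4.59 and CT 10.5 (median CT 7.11). In wild-type total RNA 27 genes were called, against 22.5% of 12682 genes, with a median amplitude of 0.12 over the 40 and a median peak of CT 4.45 among those called. Replicate numbers pair the wild-type total RNA libraries, and with the replicate as a block 31 genes were called, against 38.1% of all genes. In footprints 36 genes were called in knockdown (18.2% of 10635 genes tested) and 3 in wild-type cells (7.01% of 10736 genes), with median amplitudes of 0.41 and 0.10. The 3 were BUB3, CDCA8 and ZWINT. Without replicate 1 the knockdown counts were 24 in total RNA (9.66% of all genes) and 14 in footprints (4.45%), and without replicate 2 they were 37 (15.6%) and 30 (7.76%). With no shape assumed over the 12 times, 37 genes were called in knockdown total RNA (19.0% of all genes) and 35 in knockdown footprints (13.98%). In wild-type cells that fit called 4 genes in total RNA (5.80%) and, by limma, 0 in footprints (1.26%; 5 of the 40 at an unadjusted p under 0.05). MIS12 was the gene not called in knockdown total RNA, with an amplitude of 0.08 ± 0.03 (adjusted p = 0.115).

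**Figure D4:**
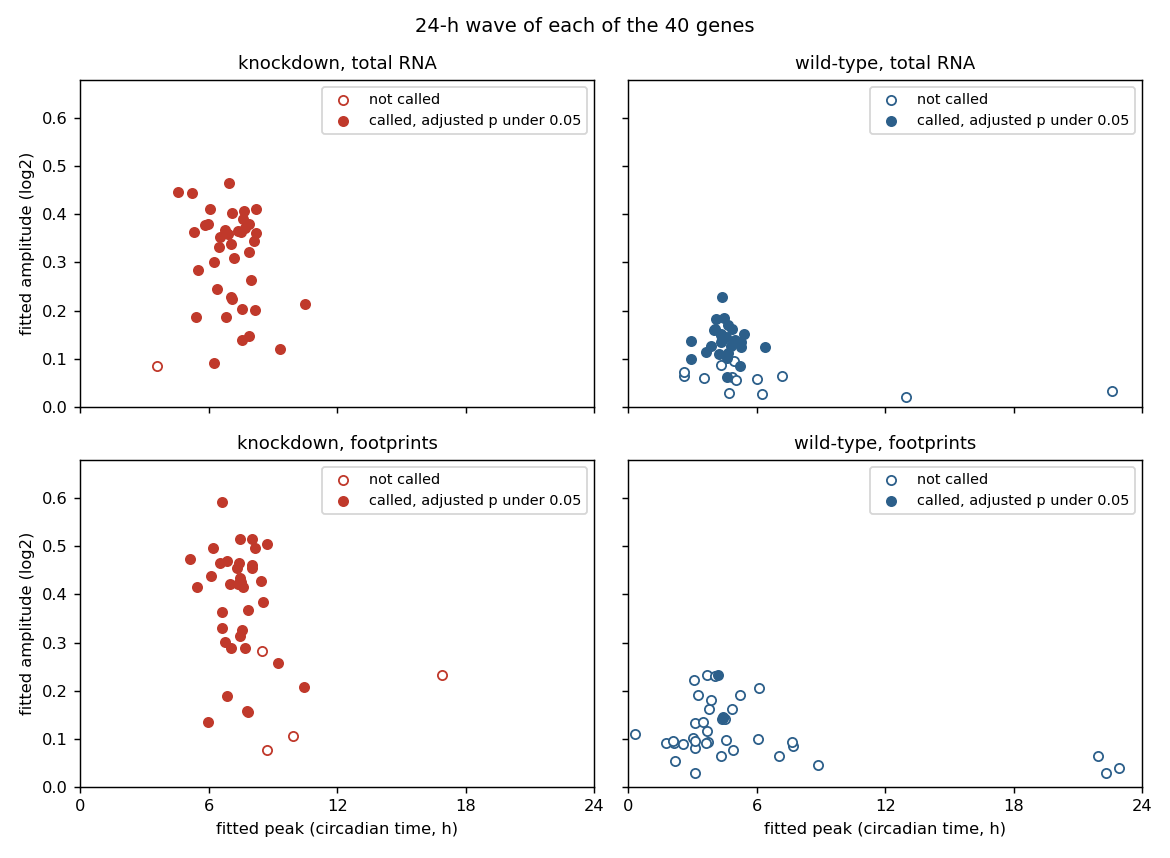
Fitted peak (circadian time) and amplitude (log2) of the 24-h wave of each of the 40 genes in knockdown (left) and wild-type (right), in total RNA (top) and footprints (bottom); filled points were called. Amplitudes in knockdown total RNA reach 0.47 and those in wild-type total RNA 0.23.

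The largest waves in knockdown total RNA were those of NDC80 (amplitude 0.47 ± 0.05, peak CT 6.93, adjusted p = 6.06e-06), CENPQ (0.45 ± 0.06, peak CT 4.59, adjusted p = 4.08e-05), DSN1 (0.44 ± 0.06, peak CT 5.21, adjusted p = 1.54e-05) and CENPA (0.41 ± 0.06, peak CT 8.20, adjusted p = 8.87e-05). The corresponding wild-type amplitudes were 0.16, 0.09, 0.07 and 0.16. NDC80 total RNA was 164 and 166 CPM at CT06 and 76.4 and 73.7 CPM at CT22 in the knockdown replicates, against 231 and 206 CPM at CT06 and 214 and 178 CPM at CT22 in the wild-type replicates. The difference between treatments for NDC80 was -0.40 at CT06 and -1.38 at CT22. NUF2 had 61.5 and 57.3 CPM at CT06 and 27.3 and 26.2 CPM at CT22 in knockdown replicates, against 89.6 and 88.2 CPM and then 83.8 and 70.5 CPM in wild-type replicates. SPC24 averaged 36.7 CPM at CT06 and 19.96 CPM at CT22 in knockdown cells, and 57.4 and 48.01 CPM in wild-type cells (n = 2 each). SPC25 averaged 51.1 and 25.2 CPM at those times in knockdown cells, and 85.1 and 72.5 CPM in wild-type cells. For each of the 4 genes the knockdown mean at CT22 was far below that at CT06, and the wild-type means at those times lay closer together.

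**Figure D5:**
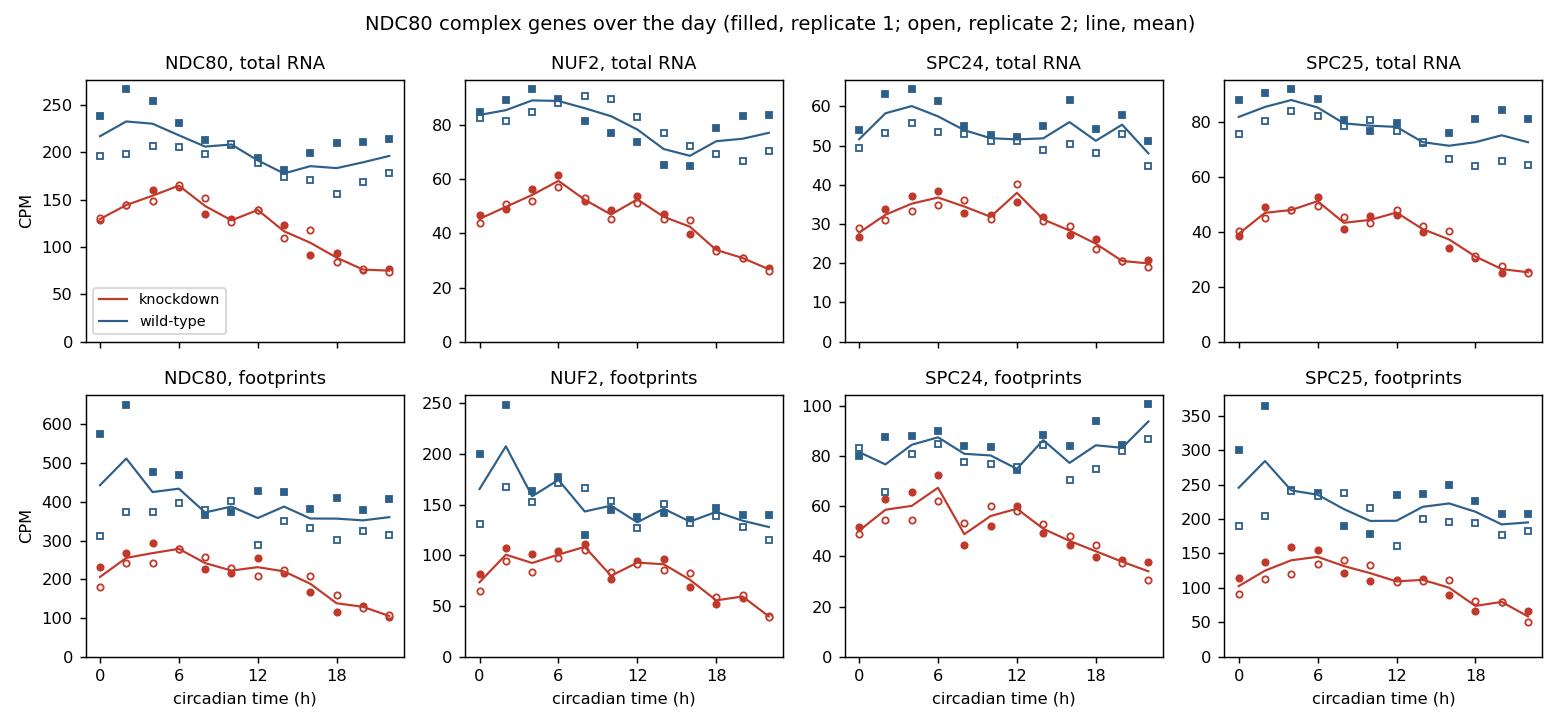
CPM of the 4 NDC80 complex genes over circadian time in total RNA (top) and footprints (bottom), for knockdown (red) and wild-type (blue); filled and open points are the replicates and lines their means. Knockdown values peak near CT06 and are lowest at or near CT22, when NDC80 total RNA averaged 75.1 CPM in knockdown and 196 CPM in wild-type cells.

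The test of the difference in the wave itself called 28 of the 40 genes in total RNA and 16 in footprints, against 10.9% and 3.85% of all genes tested. The amplitude was higher in knockdown for 39 genes in total RNA and for 38 in footprints. All 4 NDC80 complex genes were called in both assays. In total RNA, 8 of 9 corona and checkpoint genes were called, and 8 of 13 genes of centromeric chromatin and the CCAN. For the 27 genes with a called wave in both treatments' total RNA, the peak was later in knockdown in all 27, by 0.19 to 4.14 h (median 2.81 h). Peak times were not tested on their own. The share of all genes with a higher amplitude or a later peak in knockdown was not computed. The wild-type peaks rest on the cosine fit. All 27 wild-type calls were lost with a linear drift in the fit, and 23 with no shape assumed. The result leaned on replicate 1: without it 3 genes were called in total RNA (3.13% of all genes) and 0 in footprints by limma (0.773% of all genes; 17 of the 40 at an unadjusted p under 0.05). Without replicate 2 the counts were 25 (7.31%) and 7 (1.22%).

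A single day cannot separate a wave from a steady trend. The 40 genes were lower at CT22 than at CT00 in 40 of 40 cases in knockdown total RNA, with a median log2 difference of -0.63, and in 36 of 40 in wild-type total RNA, with a median of -0.17. Of all genes tested, 49.1% in knockdown and 53.2% in wild-type total RNA were lower at CT22 than at CT00, with medians of 0.00 and -0.02. With a linear drift in the fit, 22 genes kept a call in knockdown total RNA (4.61% of all genes), 21 in knockdown footprints (2.46%), and 0 in either wild-type assay by limma (6 and 3 at an unadjusted p under 0.05; 0.197% and 0.0652% of all genes). The difference in the wave was then called for 15 genes in total RNA (1.17% of all genes) and for 8 in footprints (0.608%). Replication genes peaked at a median of CT 5.39 in knockdown total RNA, ahead of the 40 genes, and mitotic cyclins and kinases at CT 8.30, after them, and these orders were not tested.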

How the data were processed

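The deposited values are a normalised signal. Per the submitters' processing notes, the authors used STAR 2.3.0e, HTSeq 0.5.4p1, DESeq2 (version not given) and build GRCh37 (hg19). Whether counting used strand is not given in the sources used here. Of 1866048 values in the deposited files, 100% were whole multiples of a step per library within 0.001 read, so reads were recovered from them.

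Each assay's recovered reads had TMM factors from edgeR 4.0.16 and were filtered by filterByExpr (minimum count 10) and tested by limma-trend (limma 3.58.1, R 4.3.3, robust) on log2(CPM + 0.25), which makes folds of low genes smaller; p-values were adjusted over all genes kept, at 0.05. Limma is the tool behind every adjusted p unless another is named. The edgeR quasi-likelihood test on the recovered reads called 10852 genes for the knockdown in total RNA and 8465 in footprints. Labels do not say that replicates were separate cultures, so the spread behind each p-value is that of these samples only and may be technical. Replicates differed by more than counting error (chi-square per degree of freedom 1.38 to 10.3 over 48 pairs). Deviations of replicates from their group means correlated over 0.1 between times for 66 of 66 pairs of times in wild-type total RNA, so the numbers pair that series, and for 13 of 66 in knockdown total RNA, 4 of 66 in knockdown footprints and 59 of 66 in wild-type footprints, and for 1 of 12 and 4 of 12 pairs of treatments in total RNA and footprints. Between assays at the same time it was 12 of 12 in wild-type and 7 of 12 in knockdown cells.

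Genes named with full values were, per role group, the largest and smallest knockdown effect, those not called or higher, the 3 largest and 3 smallest called efficiency changes, the 4 largest knockdown waves, the NDC80 complex, and 5 from each of 2 lists. The members, lists and this rule were chosen with earlier results of these data known. Alternatives were DESeq2 1.42.0 median-ratio and deposited scaling, no low-count filter, a pseudocount of 1 CPM, edgeR, each replicate left out, a replicate block, the shallow libraries left out, series means, a ratio per lysate, a drift, and no wave shape. The fits were checked on simulated reads with known changes. The simulated libraries were drawn independently, with no replicate effect, so that check does not cover the correlations between times given above. Individual values of 2 genes from the comparison and marker lists are not reported here.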

Additional observations from a re-analysis of the deposited data

Results flagged for a closer look

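The 24-h wave differed between knockdown and wild-type cells for 28 of the 40 genes in total RNA and 16 in footprints, by the interaction test in limma, against 10.9% and 3.85% of all genes. Without replicate 1, 3 and 0 of the 40 were called (13 and 17 at an unadjusted p under 0.05), and 25 and 16 calls were lost. Among the named genes in total RNA, the smallest adjusted p-values were those of DSN1 (0.000474), KNTC1 (0.000492) and SPC24 (0.000492). NDC80 (0.00119), CENPA (0.00162), NUF2 (0.00189), SPC25 (0.00207), CASC5 (0.0031), CENPF (0.00386) and CENPJ (0.00409) followed. CENPP (0.00966), CENPQ (0.00974), CENPK (0.0111), BUB3 (0.0115), SGOL2 (0.0115), SKA1 (0.0193) and CDCA8 (0.0422) were closer to the threshold. Among the named genes in footprints the adjusted p-values were 0.00542 for SPC24, 0.00868 for CENPF and KNTC1 each, 0.0125 for DSN1, 0.0173 for CASC5, 0.0205 for SGOL2 and 0.0219 for SPC25. NUF2 (0.0255), CDCA8 (0.0274), CENPP (0.0304), NDC80 (0.0311) and SKA3 (0.0468) were closer to the threshold. The knockdown amplitude was the higher of the pair in total RNA for 39 of 40 genes; CENPT was the exception, at 0.15 in knockdown and 0.17 in wild-type.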

How the results depend on the processing

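The count of the 40 genes called stayed within 1.5 times the main count in 73 of 90 recomputed counts over 9 results. Without one replicate or the other, 7 genes were called for efficiency under both, 24 to 37 for the knockdown total RNA wave, 14 to 30 for the knockdown footprint wave, and, for the wave difference, 3 to 25 (total RNA) and 0 to 7 (footprints); each of these fits has fewer libraries. With a linear drift the counts were 22 and 21 for the knockdown total RNA and footprint waves, 0 and 0 for the wild-type ones, and 15 and 8 for the wave difference. With no shape assumed, 4 genes were called in wild-type total RNA and 0 in wild-type footprints (limma; 5 at an unadjusted p under 0.05). Wild-type footprint waves were called for 5 genes with the deposited scaling.

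Over all genes, the efficiency effect was called for 1928 genes on series means, against 3465. Without a replicate it was called for 1867 to 2556. Wave counts over all genes were 1197 to 1957 without a replicate, 588 with a drift and 2428 with no shape in knockdown total RNA, against 4323. In wild-type total RNA they were 1622 to 2693, 25 and 735, against 2855; in knockdown footprints 460 to 796 and 262 (drift), against 1932; and in wild-type footprints 141 to 497, 7 and 135, against 753. The wave difference counted 408 to 961 and 154 in total RNA, against 1433, and 86 to 135 and 68 in footprints, against 431. The cause of these moves was not tested.

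With the replicate as a block, all genes called were 4830 in wild-type total RNA waves and 1337 in wild-type footprint waves, where 8 of the 40 genes were called against 3; 39 genes were called for the knockdown in each assay. Of the named genes' recomputed values, 1938 kept direction and call, 180 lost a call and 30 gained one. A further 9 changed direction with no call in either fit. Another 2 changed direction with a call in the main fit, the alternative or both. The SKA2 total RNA difference was 0.0033 without replicate 1 and -0.11 without replicate 2, and the BUB3 efficiency change was 0.0767 with the deposited scaling. Footprint depth limits low genes such as MIS12, at 8 to 40 reads per library in knockdown and 32 to 132 in wild-type. With 1 ratio per lysate, efficiency was called for 19 genes and 37.4% of all genes, with CASC5 and NDC80 gained.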
